A study of Pinus pinaster with 8 samples.

Results

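Lignin precursors are made from phenylalanine, and 8 cDNA clones for enzymes of that route were followed here in compression and opposite developing xylem of maritime pine (Pinus pinaster). The clones encode phenylalanine ammonia lyase (PAL, GEM-025-E12 and GEM-086-F08), 4-coumarate:CoA ligase (4CL, GEM-006-C11 and GEM-081-A07), coumarate 3-hydroxylase (C3H, GEM-002-C04), cinnamyl alcohol dehydrogenase (CAD, GEM-020-C04 and GEM-095-C04) and laccase (LAC, GEM-060-E04), and they are 8 of the 2910 spots of the array. They were chosen because the study lists them as more abundant in compression xylem on these same slides. The ratios between the xylem types are therefore given as a description of the 8 clones. Where a fit over all spots called them, that is counted beside the share of all spots called and is no test of the clones.

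PAL removes ammonia from phenylalanine to give cinnamate, the first step of the phenylpropanoid pathway. 4CL joins hydroxycinnamic acids to coenzyme A, C3H is a cytochrome P450 that adds a hydroxyl group to the ring of a coumarate ester, and CAD reduces cinnamyl aldehydes to the monolignols, which are exported to the cell wall. Laccases are secreted copper oxidases that can oxidize monolignols to radicals, which then couple into lignin. Compression wood is the reaction wood that conifers form on the lower side of a leaning stem, and its walls are richer in lignin than those of opposite wood, formed on the upper side.

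Compression developing xylem (Cx) and opposite developing xylem (Ox) came from 4 field-grown adult trees, 25, 28, 28 and 35 years old by the labels, whose stems had been bent 45 degrees from the vertical for 2 months, so that both xylem types come from bent stems and no upright tree enters the comparison. Amplified RNA of Cx and of Ox was labelled with Cy3 and Cy5 and hybridized to the same slide, on which PCR products of clones from a xylem cDNA library are printed as spots. A further limit of the material is that the tissue is a scraping of developing xylem, which holds many cells, and fewer cells of a type and less RNA per cell cannot be told apart. The probes were cloned from a mixed xylem RNA pool of other trees of the species than those hybridized.

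The deposited values are 8 columns of log2 ratios, 4 with Cx in Cy3 and 4 with Ox in Cy3. The columns fell into 4 pairs that correlated at r = 0.969 to 0.984 across spots, against r = 0.843 to 0.875 between pairs of the same dye orientation and r = 0.635 to 0.791 between orientations. Spots are not independent replicates. The methods describe a pair of full array copies on each slide, so the columns of a pair were averaged as copies, which leaves 4 hybridizations: 1 and 2 with Cx in Cy3, and 3 and 4 with Ox in Cy3. The labels number the columns of a pair as different trees, and the tree behind each hybridization could not be settled. Any p-value below therefore measures the spread between 4 hybridizations. All ratios are log2(Cx/Ox), positive where the Cx signal was the higher one, which is the opposite of the ratio that the study prints. The direction was taken from the study's list of fold changes, since its methods word the dye ratio the other way round. With the sign turned every ratio of the 8 clones would be negative. The paper also reports northern blots in which all selected genes, a laccase among them, followed the direction of its arrays. Those blots were not used here. Signal intensities are not used here, so no clone's level can be set against that of another, and markers of the xylem itself could not be checked as levels. Descriptions were at hand for 258 clones of the array, which are clones the study called different between Cx and Ox. They cannot show whether the scrapings held other tissue. Among those matched to a spot, none was described as a phloem or photosynthesis protein. The 2 that matched words for dividing cells were a putative cyclin-dependent protein kinase, at a mean of 1.27, and a histone H2A homolog, at -1.52. Their part in the results below was not tested.

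The parts of the clones that identify each enzyme are shown here because each ratio belongs to the DNA printed at 1 spot, and 3 of the results below turn on what that DNA is. All are from the study's expressed sequence tags (ESTs), 5′ to 3′ and in the sense direction, and for ESTs over 399 bases the first 399 were read. No genome was used, so no chromosome position is given. For the CAD clones the shared stretch is shown, with the codons of the zinc-binding signature of alcohol dehydrogenases in capitals.
CAD shared: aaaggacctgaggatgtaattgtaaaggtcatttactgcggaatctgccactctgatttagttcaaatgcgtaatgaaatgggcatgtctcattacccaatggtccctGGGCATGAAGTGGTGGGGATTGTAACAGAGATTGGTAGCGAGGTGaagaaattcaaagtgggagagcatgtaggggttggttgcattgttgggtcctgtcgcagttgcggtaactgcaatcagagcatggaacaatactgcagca
For PAL, GEM-086-F08 is shown whole. Of GEM-025-E12 the reverse complement of its first 114 bases is shown, and the capitals mark a run of 55 bases identical to another PAL EST of the study.
PAL GEM-086-F08: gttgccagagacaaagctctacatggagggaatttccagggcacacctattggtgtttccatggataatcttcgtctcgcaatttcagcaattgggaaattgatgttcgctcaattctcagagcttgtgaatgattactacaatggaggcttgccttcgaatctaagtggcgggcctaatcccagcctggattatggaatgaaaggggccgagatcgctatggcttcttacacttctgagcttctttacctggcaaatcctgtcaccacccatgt
PAL GEM-025-E12: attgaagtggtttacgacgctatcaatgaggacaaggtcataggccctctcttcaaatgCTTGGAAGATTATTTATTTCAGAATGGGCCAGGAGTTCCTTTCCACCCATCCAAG
For C3H the start of the coding region is shown, with the codons of the proline-rich hinge of plant cytochromes P450 in capitals.
C3H GEM-002-C04: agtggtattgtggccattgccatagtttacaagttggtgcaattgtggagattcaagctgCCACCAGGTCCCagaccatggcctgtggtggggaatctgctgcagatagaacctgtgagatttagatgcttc
The stretches of the 4CL clones come from different regions of the enzyme. In GEM-081-A07 the capitals mark the codons of the box II motif of 4CL, and in GEM-006-C11 nothing is marked.
4CL GEM-081-A07: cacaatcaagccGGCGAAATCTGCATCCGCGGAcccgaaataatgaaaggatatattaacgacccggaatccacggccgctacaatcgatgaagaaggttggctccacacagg
4CL GEM-006-C11: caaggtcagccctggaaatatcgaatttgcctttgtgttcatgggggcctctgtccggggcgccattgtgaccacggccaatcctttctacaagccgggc
In the laccase the capitals mark codons of a copper-binding His-X-His motif.
LAC GEM-060-E04: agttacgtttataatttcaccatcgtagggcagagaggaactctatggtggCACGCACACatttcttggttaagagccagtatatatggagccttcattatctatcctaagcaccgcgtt

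All 8 clones had a higher signal in Cx than in Ox on each of the 4 hybridizations, from 0.44 (4CL GEM-006-C11, hybridization 4) to 2.51 (PAL GEM-086-F08, hybridization 1). The mean over the hybridizations ran from 0.81 to 2.11, with a median over the clones of 1.20, against a median of -0.01 over all 2910 spots. A ratio of at least 1.5-fold (0.58 on the log2 scale) on every hybridization was seen in 7 of the 8 clones, and in 167 spots of the array (5.74%). The exception was 4CL GEM-006-C11. A mean of at least 1.5-fold was seen in all 8 clones and in 287 spots (9.86%). In limma's robust fit with Benjamini-Hochberg adjustment over all spots, with calls at 1.5-fold or more and an adjusted p no higher than 0.05, 266 spots (9.14%) were higher in Cx, all 8 clones among them, and 97 (3.33%) were lower. Without hybridization 2 or without hybridization 3, 4CL GEM-006-C11 was no longer called. The clones were chosen on this contrast, so these counts describe the choice.

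**Figure D1:**
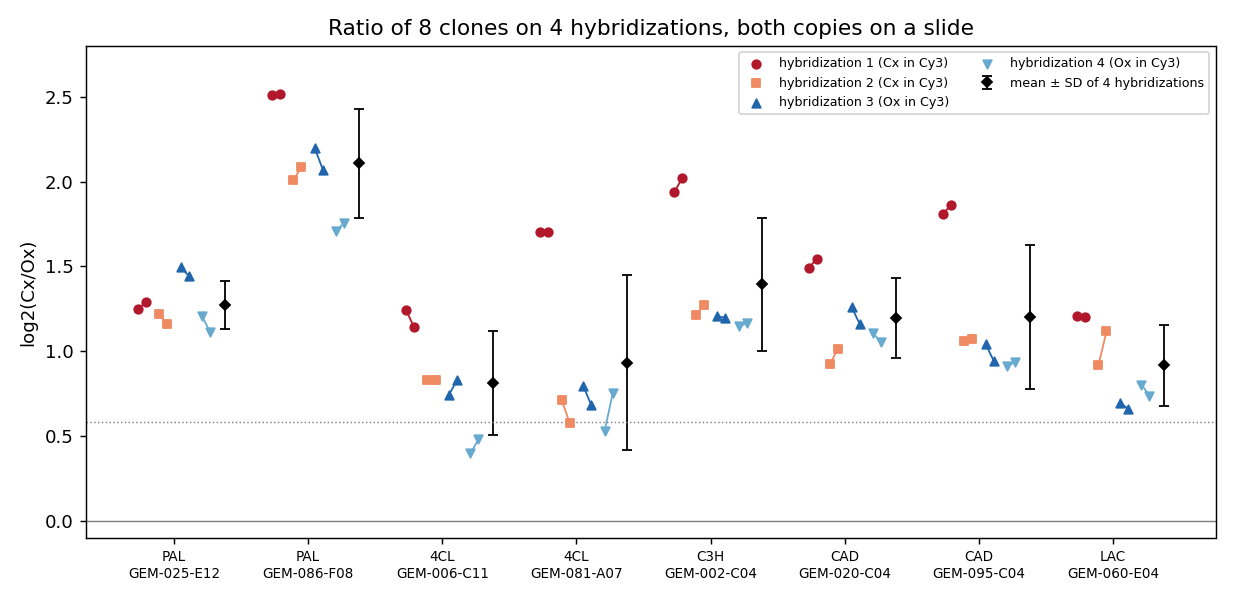
Log2(Cx/Ox) of the 8 clones on 4 hybridizations, with both array copies of a slide joined by a line and the mean ± SD of the 4 hybridizations in black. The dotted line is at 1.5-fold, and only 4CL GEM-006-C11 has a hybridization average, 0.44, below it.

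PAL, the entry enzyme, had both a high and an intermediate clone. PAL GEM-086-F08 read 2.51, 2.05, 2.13 and 1.73 on hybridizations 1 to 4. Its mean of 2.11 ± 0.32 (SD, n = 4 hybridizations) is 4.31-fold and ranked 17th of 2910 spots, the highest of the 8 clones. PAL GEM-025-E12 read 1.27, 1.19, 1.47 and 1.16, with a mean of 1.27 ± 0.14 (SD, n = 4), or 2.42-fold. The SD of this clone was the smallest of the 8, and it was the only one whose highest value was not on hybridization 1. GEM-086-F08 exceeded GEM-025-E12 on all 4 hybridizations, by 0.57 to 1.24, so their ranges did not overlap. The EST of GEM-025-E12 is 270 bases long and made of 2 stretches. The reverse strand of the first 114 bases matches a PAL EST of the study in 2 overlapping pieces, with 55 of 55 bases identical in 1 piece and 64 of 65 in the other, which lies on the opposite strand of that EST, and an EcoRI site, of the kind used to join adaptors to cDNA, begins at base 123. The last 134 bases had a best alignment score of 20 to the PAL ESTs and of 29 to any of the 577 ESTs searched, far from a full match on a scale of 2 for each identical base. Which of the stretches gave the signal of this spot was not tested.

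The 4CL clones had the lowest and the third-lowest mean of the 8. 4CL GEM-006-C11 read 1.19, 0.83, 0.79 and 0.44, with a mean of 0.81 ± 0.31 (SD, n = 4), or 1.76-fold. 4CL GEM-081-A07 read 1.70, 0.64, 0.74 and 0.64, with a mean of 0.93 ± 0.52 (SD, n = 4), or 1.91-fold. Hybridization 1 stood far above the other 3 for GEM-081-A07, and its SD was the largest of the 8 clones. The clones crossed, with GEM-006-C11 minus GEM-081-A07 between -0.51 and 0.19 over the hybridizations, so the order of their means is not fixed by the data. Their robust estimates in limma were 0.81 and 0.74, the second lower than its mean because hybridization 1 got less weight.

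C3H, the only hydroxylase among the clones, had the second-highest mean. C3H GEM-002-C04 read 1.98, 1.24, 1.20 and 1.15, with a mean of 1.40 ± 0.39 (SD, n = 4), or 2.63-fold. Hybridizations 2 to 4 lay close together and hybridization 1 lay 0.78 above their mean. The robust estimate was 1.24. C3H lay above both 4CL clones on every hybridization, by 0.41 to 0.79 for GEM-006-C11 and by 0.28 to 0.60 for GEM-081-A07.

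The CAD clones share their sequence and serve as a check between spots. All 253 bases read of the overlap are identical, bases 1 to 253 of GEM-095-C04 and 147 to 399 of GEM-020-C04, and the study places both in 1 contig. CAD GEM-020-C04 read 1.52, 0.97, 1.21 and 1.08, with a mean of 1.19 ± 0.24 (SD, n = 4), or 2.29-fold. CAD GEM-095-C04 read 1.83, 1.06, 0.99 and 0.92, with a mean of 1.20 ± 0.42 (SD, n = 4), or 2.30-fold. The means differed by 0.01, well within the spread. On single hybridizations GEM-020-C04 minus GEM-095-C04 ran from -0.32 to 0.22, so these spots with shared sequence differed by more than the copies of a spot on a slide. The clones come from different source plates and their ESTs differ in length (692 and 310 bases). The lengths of the printed inserts are not known here. The root mean square difference over hybridizations was 0.21.

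The laccase, which acts outside the cell after the monolignols are made, was among the lower clones. LAC GEM-060-E04 read 1.20, 1.02, 0.68 and 0.77, with a mean of 0.92 ± 0.24 (SD, n = 4), or 1.89-fold. Both hybridizations with Cx in Cy3 lay above both with Ox in Cy3. That order was also seen for C3H GEM-002-C04, 4CL GEM-006-C11 and CAD GEM-095-C04, and not for the remaining members. The study describes 3 more laccase clones on the array, also chosen on these slides. GEM-108-A10 read 2.73, 2.12, 1.97 and 2.09, with a mean of 2.23 ± 0.34 (SD, n = 4). GEM-055-E03 averaged 2.42 ± 0.21 and GEM-086-G05 averaged 1.05 ± 0.44 (SD, n = 4 each). The copies on a slide differed by up to 0.88 for GEM-055-E03, 0.60 for GEM-108-A10 and 0.07 for GEM-086-G05. GEM-108-A10 and GEM-060-E04 are placed by the study in 1 contig, contig 14, yet GEM-060-E04 was lower on every hybridization, by a mean of 1.31 ± 0.17 (SD, n = 4). In the bases read here the ESTs meet in 64, of which 56 are identical (87.5%), and the bases that differ are in capitals.
LAC pair GEM-060-E04: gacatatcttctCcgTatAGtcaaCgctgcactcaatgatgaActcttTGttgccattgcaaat
LAC pair GEM-108-A10: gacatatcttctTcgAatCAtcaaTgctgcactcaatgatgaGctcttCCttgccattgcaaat
The overlap runs to base 399 of GEM-060-E04, where reading was stopped here, and its EST has 589 bases. Any overlap beyond that base was not compared. Bases 1 to 118 of GEM-060-E04 matched the part of contig 14 that was read at 114 of 118 bases (96.61%). Whether the differences are between genes or reading errors was not tested. GEM-060-E04 and GEM-086-G05 were close on hybridizations 2 to 4, and GEM-086-G05 exceeded GEM-060-E04 by 0.47 on hybridization 1.

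**Figure D2:**
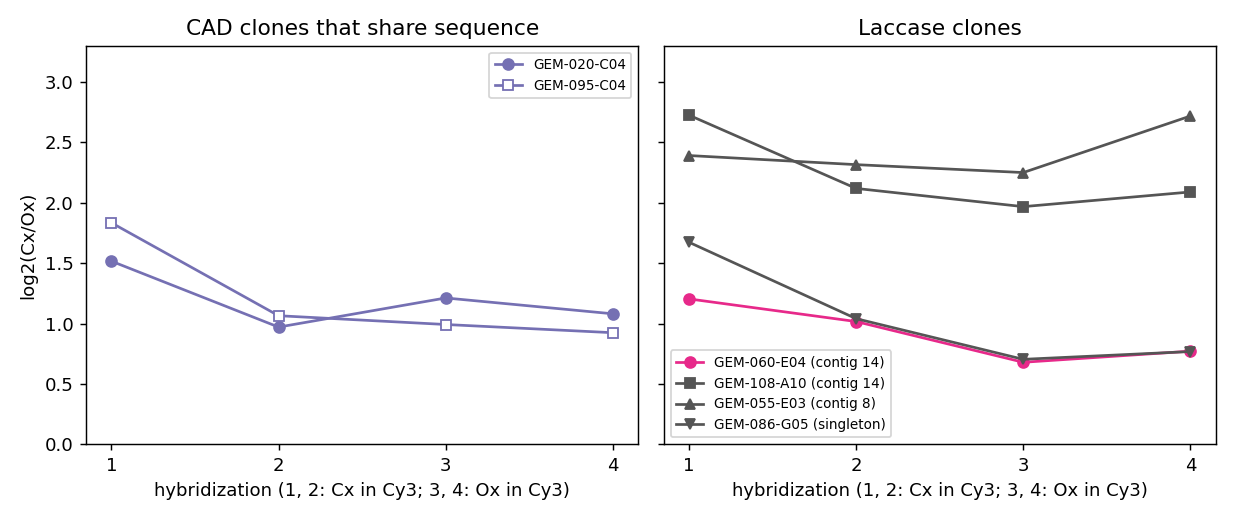
Log2(Cx/Ox) on hybridizations 1 to 4 for the CAD clones that share 253 identical bases (left) and for the 4 laccase clones (right). The CAD lines cross, while laccase GEM-060-E04 lies 1.10 to 1.52 below GEM-108-A10 of the same contig.

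Within the array the clones spread over the upper tail. Their ranks by mean ratio ran from 17 to 181 of 2910, with CAD, PAL GEM-025-E12 and C3H between ranks 55 and 79, and the 4CL clones and the laccase between 130 and 181. The 2 other clones of the pathway list fell in the same range. The dirigent-like protein GEM-042-F03, of a family that guides the coupling of monolignol radicals into lignans, averaged 0.87 ± 0.25, and a further CAD clone, whose closest match was a cotton protein, averaged 1.17 ± 0.32 (SD, n = 4 each). With the laccases, these 5 other clones ran from 0.87 to 2.42. No clone matched to a spot was described as cinnamate 4-hydroxylase, an O-methyltransferase of the pathway, cinnamoyl-CoA reductase or peroxidase in the descriptions used here, which cover clones that the study called, so those steps are not analysed here. Clones in source-plate wells adjacent to the 8 had medians between -0.14 and 0.21, with single neighbours from -0.61 to 1.72.

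**Figure D3:**
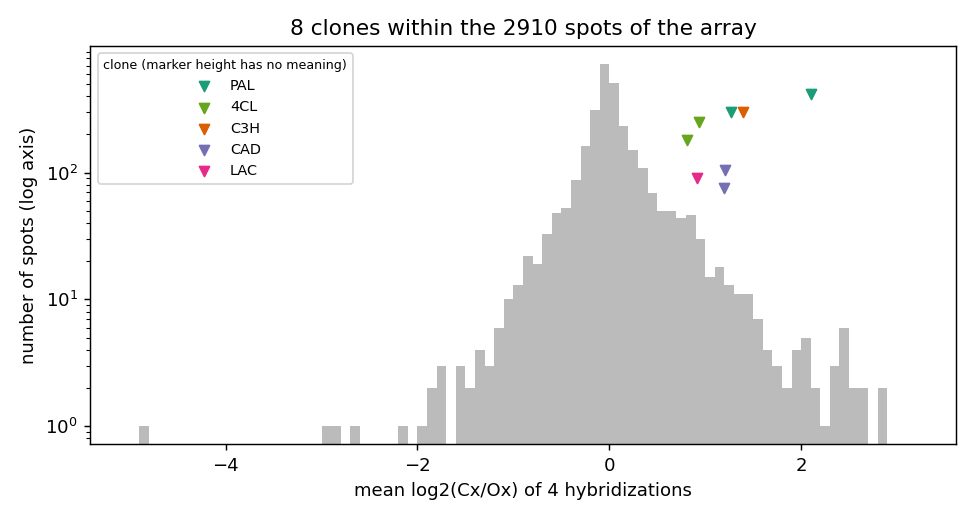
Histogram of the mean log2(Cx/Ox) of all 2910 spots (number of spots on a log axis) with the 8 clones as triangles coloured by enzyme; the height of a triangle has no meaning. The clones lie between 0.81 and 2.11, to the right of the bulk at about 0.

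The clones also had a pattern over the hybridizations in common, given as a description, since the study's choice used the spread between columns as well as their mean. Their median was 1.61 on hybridization 1, against 1.04, 1.10 and 1.00 on hybridizations 2, 3 and 4, while the median of all spots was between 0.01 and 0.03 on each. Hybridization 1 was the highest of the 4 for 7 of the 8 clones, compared with 46.3% of the 287 spots with a mean at least 1.5-fold higher in Cx and 30.3% of all spots. Hybridization 4 was the lowest for 6 of the 8, compared with 38.3% and 35.9%. Hybridization 1 exceeded the mean of the other 3 by a median of 0.52 over the clones, 0.17 over the 287 spots and 0.05 over all spots. The clones are not independent of each other, since they share the slides and the CAD clones share their sequence, so no test was made. For 3 clones hybridization 1 stood apart from the others by Dixon's ratio of the gap to the range past its critical value for 4 values, which held for 3.02% of all spots and for 3.14% of the 287 spots, and for 0.481% and 1.39% with hybridization 1 the highest. Without hybridization 1 the means of these clones, C3H GEM-002-C04, 4CL GEM-081-A07 and CAD GEM-095-C04, were 1.20, 0.67 and 0.99, all still above 1.5-fold.

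The spread between hybridizations was larger than that between copies. The SD over hybridizations had a median of 0.314 for the 8 clones, 0.264 for the 287 spots and 0.196 for all spots. The difference between copies on a slide had a median of 0.0598 for the clones and 0.0531 for all spots, and the largest among the clones was 0.223, for 4CL GEM-081-A07. The columns were paired by their high correlation across spots, so a small difference within a pair follows in part from the pairing. The error of a copy was not tested apart from it. Between slides, tree, dye orientation and hybridization cannot be told apart beyond the dye difference that follows.

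The dye orientation is balanced against the xylem contrast. Its difference adds to the spread between columns, which entered the study's choice, so it is given for the clones as a description. The ratio with Cx in Cy3 minus that with Ox in Cy3 was positive for 7 of the 8 clones, with a median of 0.39, against 0.05 over all spots. For LAC GEM-060-E04 it was 0.39 ± 0.11 (SE). For CAD GEM-095-C04, the largest of the 8, it was 0.49 ± 0.27 (SE), and for PAL GEM-025-E12, the only negative one, it was -0.09 ± 0.14 (SE). None of the 8 clones and 0 of 2910 spots (0%) had a dye effect in limma with an adjusted p no higher than 0.05. At an unadjusted p under 0.05 the numbers were 1 of 8 and 1091 of 2910 (37.5%). With so few hybridizations in each orientation, the lack of adjusted calls does not show that dye differences are absent. Each clone remained higher in Cx in both orientations, by 1.01 to 2.28 with Cx in Cy3 and by 0.61 to 1.93 with Ox in Cy3. The median of the dye difference rested on hybridization 1, and without it was 0.0856.

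**Figure D4:**
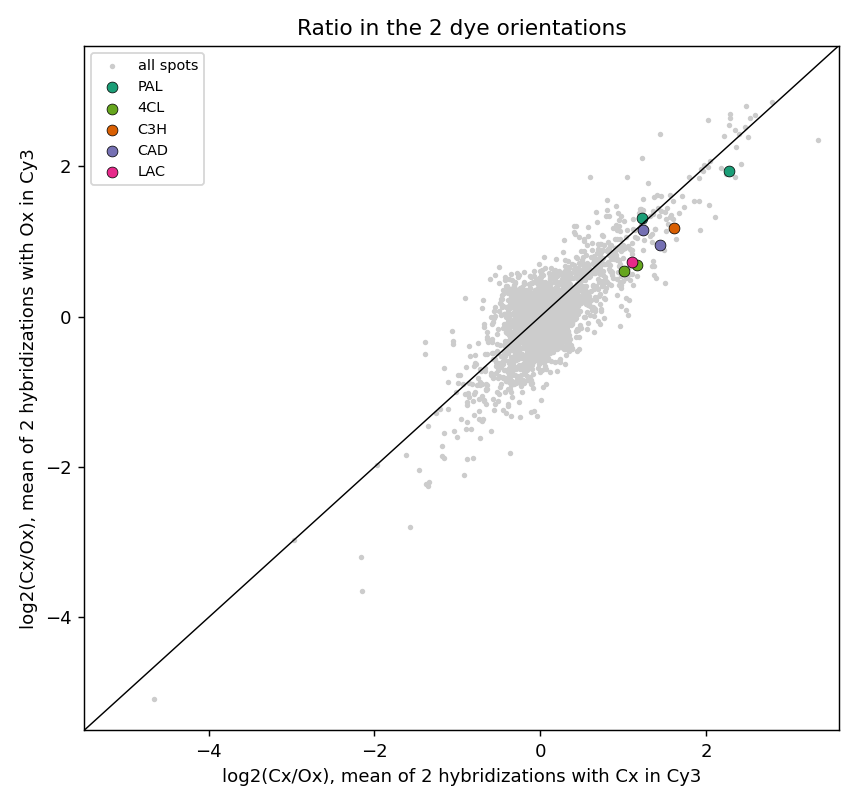
Mean log2(Cx/Ox) of the 2 hybridizations with Cx in Cy3 (x axis) against that of the 2 with Ox in Cy3 (y axis) for all spots (grey) and the 8 clones (coloured by enzyme), with the line of equal ratios. All 8 clones are above 0 on both axes, and 7 lie below the line.

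By root mean square difference over the 4 hybridizations, the named clone nearest to each of the 8 was found among 2067 named spots, as a description over 4 points. LAC GEM-060-E04 was nearest to the dirigent-like clone GEM-042-F03, at 0.0566. PAL GEM-086-F08 was nearest to GEM-084-E03, a phenylcoumaran benzylic ether reductase, at 0.121, an enzyme that acts on lignan-type dimers of monolignols. 4CL GEM-006-C11 was nearest to GEM-049-H03, a shikimate kinase, at 0.0744, an enzyme of the pathway that leads to phenylalanine. PAL GEM-025-E12 was nearest to GEM-112-D05, a putative UDP-glucuronosyltransferase, at 0.0411, and C3H GEM-002-C04 to GEM-095-G05, an alpha-tubulin, at 0.153. CAD GEM-095-C04 was nearest to the further CAD clone with the cotton match, at 0.124, which was also the nearest to the median profile of the 8, at 0.0668. CAD GEM-020-C04 and 4CL GEM-081-A07 were nearest to clones with no similarity found or of unknown product, at 0.0662 and 0.182. Of the other 4 clones nearest to the median profile, at 0.130 to 0.166, GEM-102-B04 was described as an antioxidant, electron carrier or oxidoreductase. GEM-023-H07, the farthest of them, was described as like fructose-bisphosphate aldolase, an enzyme of sugar metabolism. The descriptions of the others named no function.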

How the data were processed

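The authors deposited log2 ratios of 2910 spots in 8 columns, each taken here, and not by the labels, as 1 array copy. The ratios were made by background correction with the normexp method and print-tip loess without scaling between arrays. The submitters' processing notes name R 2.7.1 and limma 2.14.5. No value was missing and 0 columns were left unused. Columns with Cx in Cy3 were multiplied by -1, and copies on a slide were averaged. Fold changes listed by the study served only as a key to give spots their clone names (2067 named, 843 not), and its tables used here are shortened. The member clones and all lists were chosen with earlier results of these data known. The named clones are the 8 members, 5 other clones of the pathway list, 2 clones with markers of dividing cells, and the clones nearest to each member and to the median profile by root mean square difference.

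Spots were fitted in limma 3.58.1 (R 4.3.3, statmod 1.5.0) with a robust, intercept-only linear model (limit of 200 iterations) and empirical Bayes moderation, and p-values were adjusted over 2910 spots by Benjamini-Hochberg. The dye effect was fitted by least squares with tissue and dye terms. Sequences were aligned locally with Biopython 1.88 (match 2, mismatch -3, gap opening -7, gap extension -2). Python 3.11.15, numpy 2.4.6, pandas 2.3.3 and matplotlib 3.10.9 were also used. Same-numbered columns of the 2 orientations deviated together with r = 0.00, -0.03, -0.02 and -0.01, and the numbers were not taken to pair them. Because copies are near-identical, these values largely repeat the same comparison of hybridizations. They cannot settle which tree a number stands for. The number of arrays limits the precision, and intensities, with the study's filters on them, are not used here. Alternatives were other fits, centring, scaling, each orientation alone and leaving out each hybridization.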

Additional observations from a re-analysis of the deposited data

Results flagged for a closer look

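For 3 of the 8 clones 1 hybridization stood apart from the other 3, by the gap to the nearest value divided by the whole range, against Dixon's critical value for 4 values. The ratio was 0.894 for C3H GEM-002-C04, 0.905 for 4CL GEM-081-A07 and 0.845 for CAD GEM-095-C04, and in all 3 hybridization 1 was the highest. Chance sets apart about 1 in 20 groups, and 88 of 2910 spots (3.02%) passed the same limit, with hybridization 1 the highest in 14 of them (0.481%). Among the 287 spots with a mean at least 1.5-fold higher in Cx, 9 (3.14%) passed and hybridization 1 was the highest in 4 (1.39%). The 3 clones are part of those counts. What sets hybridization 1 apart was not tested.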

How the results depend on the processing

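Over the 8 clones and the alternatives tried, all 104 values of a clone's ratio kept its direction and lay within 1 SD between hybridizations of the value given. All 8 clones were called under the other fits and scalings, and 7 with Cx in Cy3 only, where 4CL GEM-081-A07 was lost, and without hybridization 2 or 3, where 4CL GEM-006-C11 was lost. Leaving out each hybridization gave 212 to 281 spots higher in Cx, 65 to 133 lower and a median clone ratio of 1.04 to 1.27. With Ox in Cy3 only, 196 spots were lower in Cx, against 97. With the replicate number as a block, the 8 columns gave 287 spots higher, 130 lower, 8 clones and a median of 1.20. Least squares on the 4 hybridization averages gave 284, 119, 8 and 1.20. The robust fit on the same averages gave 266, 97, 8 and 1.13. The numbers do not pair the columns.

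The dye effect depended more on the processing. Its median over the clones was 0.68 after centring and scaling the columns, against 0.39, and 0.0856 to 0.579 when each hybridization was left out in turn. With copies as a block 891 spots had a dye effect, against 0. In another setting each column was paired with the same-numbered column of the other dye orientation. The differences within these pairs were fitted, which put near-identical columns in the same fit as if independent. That fit gave a dye effect for 1535 spots and 4 of the 8 clones, against 0 and 0. The dye effect of PAL GEM-025-E12, -0.09, was 0.20 after centring and scaling and ran from -0.24 to 0.0690 when each hybridization was left out, the highest being without hybridization 3. That of 4CL GEM-081-A07 ran from -0.0453, without hybridization 1, to 1.01, and that of CAD GEM-020-C04 from -0.18, without hybridization 1, to 0.37. The cause was not tested. With 4 hybridizations and no intensities, small differences between clones are not resolved.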
